A study of Mus musculus with 6 samples.

Results

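Collagens, laminins and integrins were described in Hepa1-6 cells, a mouse liver cancer (hepatoma) line, in which midnolin was suppressed by shRNA. Genes were taken by symbol, as collagen chains (Col), laminin chains (Lama, Lamb, Lamc) and integrin chains (Itga, Itgb), and this gave 81 of the 25078 genes of the count table. Col4a3bp, which the symbol rule also takes, encodes the ceramide transfer protein and not a collagen, and was left out, so that 80 genes remained. These were 44 collagens, 11 laminins and 25 integrins. The integrin chains Itga2b and Itgb2l fall outside the rule. Itga2b is given by its values below, and Itgb2l had 1 count in 1 knockdown library and 0 in the other libraries.

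RNA was measured by ribosome-depleted RNA-seq in 6 libraries. Cells of 1 library received no vector (wt), cells of 2 libraries carried a lentiviral scramble vector (scr 25-2 and scr 50-1), and cells of 3 libraries carried a lentiviral midnolin shRNA vector (knockdown 25-3, 50-2 and 50-5). The scr and knockdown cells were selected with puromycin, the vectors stay in the cells, and single-cell-derived colonies were isolated by limiting dilution, but the labels do not say which library is which colony or what the numbers 25 and 50 mean. In the gene list of the study, the RPKM column of the clone sh1 equals that of knockdown 50-2, and the column of the clone sh2 equals that of knockdown 25-3, in 1325 of 1325 genes matched by name. Spread between these 2 knockdown libraries is thus spread between clones. The list holds no column of knockdown 50-5, and whether that library and the scr libraries are separate clones is not stated, so the p-values below measure only the spread between these libraries. All cells were kept in the same medium with serum.

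Levels are given as RPKM, that is, reads scaled by the exon length of the gene and the size of the library, so that levels of genes of different length can be set side by side. Knockdown was compared with scr by edgeR's quasi-likelihood test on the counts, for the 11577 genes whose RPKM exceeded 1 in any of the 5 libraries. A gene was called, and is said to have risen or fallen, at a Benjamini-Hochberg FDR under 0.05 with a fold change of at least 1.5. Total counts ranged from 25586301 in wt to 33119710 in knockdown 50-5. Midn, the targeted gene, had an RPKM of 60.5 in wt, 59.6 and 50.8 in scr, and 20.3, 21.8 and 22.1 in knockdown, and fell by 1.38 on the log2 scale (SE 0.13, FDR 0.0078).

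The labelled cell type was checked by marker genes, summed as RPKM. Of 9 hepatocyte markers, 7 had an RPKM over 1 in at least 1 library. The 9 summed to 5501 in wt, 3255 to 4195 in scr and 914.5 to 1840 in knockdown. Apoa1 passed 1 through wt alone (1.59), with 0.206 and 0.107 in scr and 0.545, 0.376 and 0.0306 in knockdown. Apoh had at most 0.086 in every library, and Serpina1a had 0 counts in all of them. Albumin (Alb), with an RPKM of 1877 and 2804 in scr and of 336, 62.7 and 20.9 in knockdown (FDR 0.071), and alpha-fetoprotein (Afp), with 302 and 533 in scr and 212, 50.9 and 33.2 in knockdown (FDR 0.143), were lower in all 3 knockdown libraries, neither being called. Transferrin (Trf), with 578 and 198 in scr and 295, 237 and 120 in knockdown, had a lower mean in knockdown (217 against 388), but its groups overlapped (FDR 0.332). The means of Krt18, Hnf4a and Krt8 were higher in knockdown and were not called either, at 871 against 471.5 for Krt18, whose groups did not overlap, and at 53.5 against 22.5 for Hnf4a and 136.5 against 84.7 for Krt8, whose groups did. Of the 9 fibroblast and stellate cell genes, Acta2, Pdgfrb, Lrat, Lum and Thy1 had at most 0.1 in every library, decorin (Dcn) had 409 to 1028, and Pdgfra had 1.93 in wt, 0.308 and 0.167 in scr, and 2.70, 1.90 and 1.58 in knockdown. Pdgfra was called higher (FDR 0.0140) and kept the call in 3 of the 5 fits without 1 library, but wt lay within the knockdown range, and the gene passed the filter through the knockdown libraries alone, so that a difference follows in part from the filter. The list summed to 562.6 to 594.5 in scr and 411.2 to 575.5 in knockdown. The endothelial list summed to 2.95 in wt, 0.198 to 0.272 in scr and 0.395 to 0.529 in knockdown, and 5 of its 7 genes had at most 0.1 in every library. The leukocyte list summed to 40.5 to 69.1 in scr and 21.0 to 29.2 in knockdown, and Cd14, with 36.3 and 63.9 in scr and 12.3, 14.4 and 15.4 in knockdown, made up most of the sum and was called lower, in 2 of the 5 fits without 1 library as well. Cd68 (3.02 and 4.53 in scr, 6.22, 6.88 and 9.21 in knockdown), Csf1r (1.12 and 0.0725 in scr, 2.26, 2.33 and 4.27 in knockdown) and Ptprc (at most 0.160) lay higher in all 3 knockdown libraries than in scr, without a call. The biliary list summed to 204.3 to 565.2 in scr and 378.7 to 553.8 in knockdown, with Krt7 called lower, also in 4 of the 5 fits without 1 library. Krt19, at most 0.179, lay higher in all 3 knockdown libraries than in scr, and the groups overlapped in Sox9 (means of 27.0 in scr and 37.4 in knockdown) and Spp1 (338.5 and 421.4). The part of these cell state differences in the results below was not tested.

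Collagens are secreted chains that wind into triple helices, and laminins are cross-shaped trimers of an alpha, a beta and a gamma chain that form, with collagen IV, the sheet of a basement membrane. Integrins are the cell surface receptors that hold cells to this matrix, each a pair of an alpha and a beta chain, and the pair decides which ligand is bound. In liver, collagen I and collagen III come mainly from stellate cells, whereas hepatocytes and the tumours derived from them are known for a small set of integrins built on the Itgb1 chain. Tumour cells often change their integrin pairs, and the pairs that hold Itgav bind ligands with the RGD motif such as fibronectin and vitronectin.

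The promoters of 4 of these genes are shown because the genes differ in where they were on. Col9a1 had an RPKM over 1 in wt and scr 50-1 only, Col6a1 in the 3 knockdown libraries only, Col6a2 in no library and Itgav in all libraries. The bases directly upstream of each gene start were taken from RefSeq (build GRCm38.p6, the same assembly as mm10, to which the reads were aligned), 5′ to 3′ on the strand of the gene, with CpG dinucleotides in capitals. For Col6a1 (chr10:76726169-76726294, minus strand) an annotated exon of Col6a1 itself reached into the window. Only the 126 bases outside this exon are shown. The other windows were 250 bases long, at chr10:76623631-76623880 on the minus strand for Col6a2, at chr1:24177360-24177609 on the plus strand for Col9a1, and at chr2:83724147-83724396 on the plus strand for Itgav.
Col9a1: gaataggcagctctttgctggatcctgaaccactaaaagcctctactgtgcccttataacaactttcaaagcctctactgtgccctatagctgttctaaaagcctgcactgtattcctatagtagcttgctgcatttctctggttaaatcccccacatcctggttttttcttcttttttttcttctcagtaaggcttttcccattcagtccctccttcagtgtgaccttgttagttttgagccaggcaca
Col6a1: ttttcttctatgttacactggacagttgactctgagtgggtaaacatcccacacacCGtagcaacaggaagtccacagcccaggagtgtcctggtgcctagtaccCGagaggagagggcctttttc
Col6a2: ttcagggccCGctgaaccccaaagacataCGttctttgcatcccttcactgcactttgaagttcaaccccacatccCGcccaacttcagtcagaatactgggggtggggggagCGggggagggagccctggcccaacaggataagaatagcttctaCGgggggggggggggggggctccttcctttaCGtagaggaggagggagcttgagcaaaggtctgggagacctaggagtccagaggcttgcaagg
Itgav: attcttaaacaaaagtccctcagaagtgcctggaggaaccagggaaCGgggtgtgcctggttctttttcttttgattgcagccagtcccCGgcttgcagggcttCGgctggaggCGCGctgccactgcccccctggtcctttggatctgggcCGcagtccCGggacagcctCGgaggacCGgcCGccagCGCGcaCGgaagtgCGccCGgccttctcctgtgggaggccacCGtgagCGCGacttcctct
The Col9a1 window held 0 CpGs, and the whole 250-base window of Col6a1, exon bases included, held 3. The window of Col6a2 held 6 and that of Itgav held 18.

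A promoter entry was found for 57 of the 80 genes, and for 55 of them its start was the gene start of the count table. Over all 32851 windows of that length the median was 6 CpGs, and 46.3% of windows held more. Among the 15 genes with an RPKM over 1 in both groups, 13 held more than 6 CpGs (median 14, range 2 to 31), and among the 36 genes with an RPKM over 1 in no library, 21 did (median 8.5, range 0 to 28). Of the 4 genes with a window that passed an RPKM of 1 in 1 group alone, Col6a1 had 3 CpGs and Col7a1 had 7 (knockdown only), and Col9a1 had 0 and Itga10 had 2 (scr only). The GC box GGGCGG was found on either strand in 28 of the 55 windows against 32.7% of all windows, the TATA box TATAAA in 5 against 12.4%, and CCAAT in 15 against 33.8%. Of the 8 called genes with a window, 4 held the GC box, 0 the TATA box and 1 CCAAT. A match of letters is a description and not a site.

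Of the 80 genes, 28 exceeded an RPKM of 1 in a scr or knockdown library and were tested, and 52 did not. Among the 52, 4 had 0 counts in all 6 libraries (Col10a1, Col13a1, Itgb8 and Lama4), 24 reached at most 1 to 9 counts, and 24 reached at least 10 counts in a library. The fibrillar collagens other than Col27a1, which include the chains of collagen I and collagen III, the main fibers of scar tissue, summed to an RPKM between 0.323 and 0.535 in every library. Those tested were 11 collagens, 6 laminins and 11 integrins.

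Of the 28 genes tested, 10 were called in knockdown against scr, 5 higher and 5 lower. Over all genes tested, 10.6% were called, 5.4% higher and 5.23% lower. Risen genes were the collagens Col6a1, Col7a1 and Col22a1 and the integrins Itgav and Itgb3, and fallen genes were the collagens Col9a1 and Col27a1, the laminin Lama5 and the integrins Itga10 and Itgb5. The 28 genes include 4 that passed the filter through the knockdown libraries alone, which were all called higher, and 3 that passed through the scr libraries alone, of which 2 were called lower. For such genes a difference follows in part from the filter. Among the 21 genes with an RPKM over 1 in both groups, 4 were called (Itgav higher, Lama5, Itgb5 and Col27a1 lower), against 8.54% of all genes with an RPKM over 1 in both groups. The median log2 fold change was 0.33 over the 28 genes and -0.01 over all genes tested, and by family it was 0.38 for collagens, -0.27 for laminins and 0.39 for integrins.

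**Figure D1:**
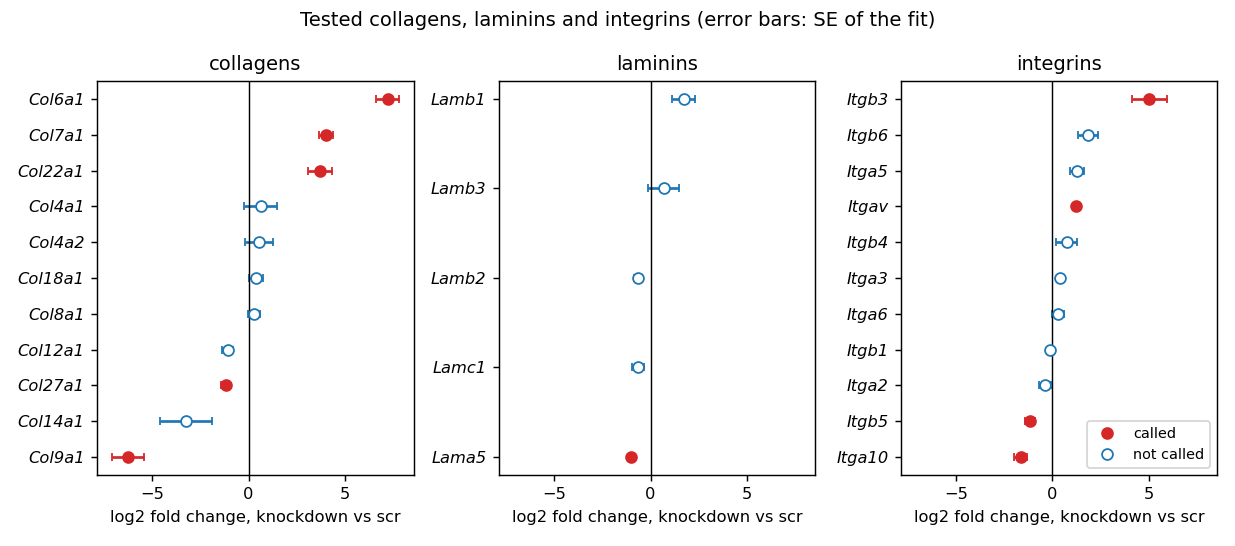
Log2 fold change of knockdown against scr (x axis, log2 units) for 27 of the 28 tested collagens, laminins and integrins, with the standard error of the fit as bars and called genes as filled red points. Col6a1 lies farthest to the right at 7.21 and Col9a1 farthest to the left at -6.25, and Lama5 is the laminin that was called.

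The 3 knockdown libraries all lay above both scr libraries in 9 of the 28 genes and all below in 7, and the groups overlapped in 12. Over all genes tested, 25.7% lay above and 24.5% below. By distance to the group means of log2(RPKM + 0.1), wt lay nearer to scr for 9 of the 10 called genes. Itga10, with 0.715 in wt against 1.63 and 0.989 in scr, was the exception. In Lama5, wt (33.95) lay between the scr mean of 46.3 and the knockdown mean of 23.1. The share over all called genes was not computed, so the count describes these 10 genes only.

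Among collagens, Col6a1 differed most. It encodes a chain of collagen VI, which forms beaded filaments around cells. Its RPKM was 0.154 in wt, 0.111 and 0.0177 in scr, and 9.12, 11.2 and 9.23 in knockdown. In reads this was 13 and 2 counts in scr against 1145, 1444 and 1215 in knockdown, so that the gene was near 0 in all 3 libraries without the shRNA. Col6a1 rose by 7.21 on the log2 scale (SE 0.59, FDR 0.0060), and the ratio of the pooled counts, scaled for library size, was 151.5 with an exact 95% interval from 91.7 to 271 that covers counting error only. The call held without each library in turn, but its size depended on which scr library was left out, with a log2 fold change of 9.05 without scr 25-2 and 6.45 without scr 50-1.

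A collagen VI molecule is built from a Col6a1 chain, a Col6a2 chain and a larger chain such as Col6a3, so the partners were compared. Col6a2, which lies 85161 bases from Col6a1 on the same strand of chromosome 10, had 0 counts in wt and both scr libraries and 7, 5 and 1 counts in knockdown. Col6a3 had 5 counts in wt, 2 and 5 in scr, and 140, 98 and 150 in knockdown, which is an RPKM of 0.409, 0.280 and 0.418 there. Both stayed under the RPKM filter. Without that filter Col6a3 was called higher (log2 fold change 4.99, SE 0.56, FDR 0.0059), whereas Col6a2 was not called, among 76 of the 80 genes that could then be tested. The call rate over all genes was then 7.32%. In the knockdown libraries the level of Col6a1 per length thus lay far above that of both partners.

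Col7a1, the collagen of the anchoring fibrils that tie a basement membrane to the tissue below it, had an RPKM of 0.129 in wt, 0.191 and 0.118 in scr, and 1.99, 2.37 and 3.23 in knockdown. It rose by 4.02 on the log2 scale (SE 0.38, FDR 0.0075), and this call too held without each library. Col22a1, a collagen of tissue junctions, had 0.332 in wt, 0.116 and 0.424 in scr, and 2.77, 4.67 and 3.20 in knockdown. The knockdown libraries lay far above the others in both genes. Col22a1 rose by 3.70 (log2, SE 0.61, FDR 0.0230), but the call was lost without any 1 of the 3 knockdown libraries (FDR 0.0744 without 25-3, 0.0909 without 50-2 and 0.0729 without 50-5). The log2 value was 3.07 without scr 25-2 and 4.91 without scr 50-1.

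Col9a1 showed the opposite pattern. It encodes a chain of collagen IX, which coats collagen II fibrils in cartilage. Its RPKM was 1.42 in wt, 0.754 and 1.28 in scr, and 0.0306, 0.00747 and 0 in knockdown, from 92 and 151 counts in scr and 4, 1 and 0 counts in knockdown. Col9a1 fell by 6.25 on the log2 scale (SE 0.85, FDR 0.0149), and the pooled rate was 81.4 times higher in scr with an exact 95% interval from 34.4 to 253 for counting error. Without knockdown 50-2 the FDR was 0.0862, and without knockdown 25-3, which held 4 of the 5 knockdown counts, the log2 fold change was -7.78. The other collagen IX chains were low in all cells. Col9a2 had 1 count in knockdown 50-2 and 0 elsewhere, and Col9a3 had an RPKM of 0.445 in wt, 0.764 and 0.469 in scr, and 0.423, 0.283 and 0.202 in knockdown.

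Col27a1, the fibrillar collagen that these cells did express, had an RPKM of 5.07 in wt, 7.07 and 4.25 in scr, and 2.48, 2.51 and 2.55 in knockdown. The 3 knockdown libraries were almost equal and lay below both scr libraries, which differed more from each other. Col27a1 fell by 1.19 on the log2 scale (SE 0.23, FDR 0.0351). The call was lost without knockdown 25-3, 50-2 or 50-5 (FDR 0.123, 0.139 and 0.105), and the log2 fold change was -0.76 without scr 25-2 and -1.51 without scr 50-1, both called. Col12a1, a fibril-associated collagen, had 8.90 and 12.6 in scr and 3.71, 5.23 and 6.30 in knockdown, a log2 fold change of -1.09 (SE 0.27) that did not pass the threshold (FDR 0.0562) and passed it without scr 25-2 (-1.30, FDR 0.0336), with wt added to the controls (FDR 0.0215), with total counts in place of TMM (FDR 0.0495), with a block for the 25 or 50 of the titles (FDR 0.0276) and by DESeq2 (adjusted p 0.0024). It did not pass without scr 50-1 (-0.82, FDR 0.126), without a knockdown library (FDR between 0.0847 and 0.176) or by limma (FDR 0.0628 and 0.0825). In Col14a1, a related chain, the scr libraries lay farthest apart as a ratio among the tested collagens, laminins and integrins. Its RPKM was 0.0474 in scr 25-2 and 3.03 in scr 50-1 against 0.231, 0.168 and 0.0936 in knockdown (FDR 0.171). Without scr 25-2 its log2 fold change of -4.21 had an FDR of 0.0060, whereas without a knockdown library the FDR lay between 0.311 and 0.359, and without scr 50-1 the gene could not be tested.

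**Figure D2:**
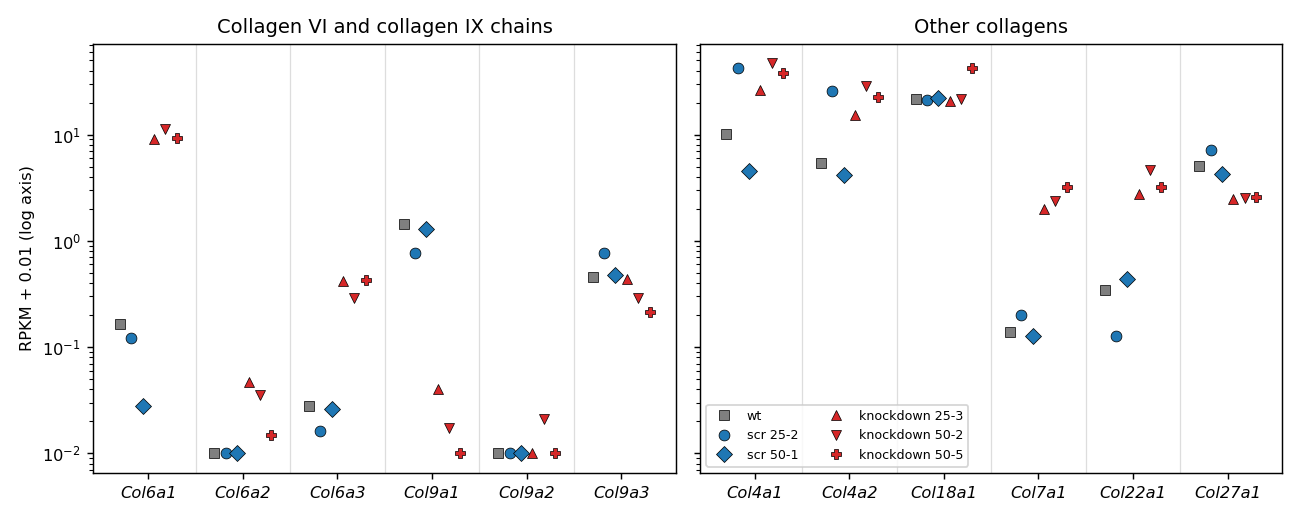
RPKM plus 0.01 on a log axis for collagen VI and collagen IX chains (left) and for 6 other collagens (right), 1 point per library, with wt in grey, scr in blue and knockdown in red. Col6a1 sits between 9.12 and 11.2 in knockdown and at or under 0.154 elsewhere while Col6a2 stays near 0, and Col4a1 and Col4a2 separate the scr libraries from each other.

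The collagens at the highest levels did not pass the test. Col4a1, Col8a1 and Col18a1 had the highest mean RPKM of all collagens, and together with Col4a2 they made up 68.7% to 85.3% of the summed collagen RPKM in every library. Col4a1 and Col4a2 are the chains of the common form of collagen IV, the network former of basement membranes, and they lie head to head on chromosome 8, where their spans overlap by 22 bases. Col4a1 had an RPKM of 10.1 in wt, 42.6 in scr 25-2, 4.51 in scr 50-1, and 26.4, 46.6 and 38.1 in knockdown. Col4a2 had 5.33, then 25.6 and 4.14, then 15.1, 28.8 and 22.5 in the same order of libraries. The scr libraries were 9.44-fold apart in Col4a1 and 6.20-fold apart in Col4a2, and both genes were high and low in the same libraries. The ratio of Col4a1 to Col4a2 ranged from 1.09 in scr 50-1 to 1.90 in wt. The log2 fold changes were 0.64 (SE 0.85, FDR 0.652) for Col4a1 and 0.55 (SE 0.73, FDR 0.647) for Col4a2. The choice of the scr library decided these values, since without scr 25-2 they were 3.04 (FDR 0.0089) and 2.42 (FDR 0.0184), and without scr 50-1 they were -0.21 and -0.23.

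Col18a1, the basement membrane collagen from which endostatin is cut, had an RPKM of 21.4 in wt, 21.2 and 21.9 in scr, and 20.8, 21.8 and 42.2 in knockdown. Col8a1, a short-chain network collagen, had 18.2 in wt, 24.9 and 23.2 in scr, and 21.4, 24.3 and 42.2 in knockdown. In both genes 5 libraries were close together and knockdown 50-5 was higher. Their log2 fold changes were 0.38 (SE 0.35, FDR 0.489) for Col18a1 and 0.28 (SE 0.32, FDR 0.594) for Col8a1, and without knockdown 50-5 they were -0.035 and -0.090.

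Among laminins, Lama5 was the alpha chain of these cells, with at least 95.8% of the summed laminin alpha RPKM in each library. Lama5, the alpha chain of laminins that are widespread in adult epithelial basement membranes, had an RPKM of 33.95 in wt, 45.9 and 46.8 in scr, and 23.3, 25.4 and 20.6 in knockdown. All knockdown libraries lay below wt and scr. Lama5 fell by 1.02 on the log2 scale (SE 0.13, FDR 0.0138). Without a knockdown library the FDR was just over the threshold (0.0681 without 25-3, 0.0676 without 50-2 and 0.0503 without 50-5), at log2 fold changes between -1.08 and -0.95 over the 5 sets of 4 libraries. The other alpha chains were low. Lama3, a partner of Lamb3, had 2 and 0 counts in scr and 22, 33 and 140 in knockdown, and Lama1, the alpha chain of the early embryo, had 0 counts in wt and scr and 20, 3 and 157 in knockdown.

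Of the tested beta and gamma laminin chains, 0 were called by edgeR, though Lamb1 and Lamb2 had an unadjusted p under 0.05 and were called by DESeq2. Lamb1, the beta chain of the most widespread laminins, had an RPKM of 8.16 in wt, 6.26 and 2.97 in scr, and 9.29, 26.0 and 10.6 in knockdown, a log2 fold change of 1.71 (SE 0.58, FDR 0.111). Lamb2, which takes the place of Lamb1 in mature basement membranes, had 30.7 in wt, 32.7 and 46.7 in scr, and 23.6, 23.2 and 30.2 in knockdown, a log2 fold change of -0.64 (SE 0.21, FDR 0.105). The groups did not overlap in either gene. Lamb1 made up 6.0% and 16.1% of the Lamb1 and Lamb2 sum in scr, 21.0% in wt and 28.3%, 52.9% and 26.0% in knockdown. The log2 fold change of Lamb2 was -0.86 (FDR 0.0364) without scr 25-2 and -0.36 (FDR 0.266) without scr 50-1, and its FDR lay between 0.126 and 0.288 without a knockdown library. That of Lamb1 ranged from 1.11 without knockdown 50-2 to 2.37 without scr 25-2 and was called in none of the 5 fits.

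Lamb3, the beta chain of the epithelial anchoring laminin, was spread over the groups, with 6.08 in scr 25-2 and 31.1 in scr 50-1, a 5.12-fold difference, and 12.2, 33.9 and 44.5 in knockdown (log2 fold change 0.69, SE 0.80, FDR 0.597). Its log2 fold change was -0.042 without scr 25-2 and 2.30 without scr 50-1. Lamc1, the gamma chain of most laminins and the laminin with the highest mean RPKM, had 36.7 in wt, 68.2 and 35.4 in scr, and 29.3, 39.8 and 29.97 in knockdown. Here scr 25-2 alone was high. Its log2 fold change of -0.67 (SE 0.30, FDR 0.198) rested on that library, being -0.10 (FDR 0.781) without scr 25-2 and -1.06 (FDR 0.0377) without scr 50-1.

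**Figure D3:**
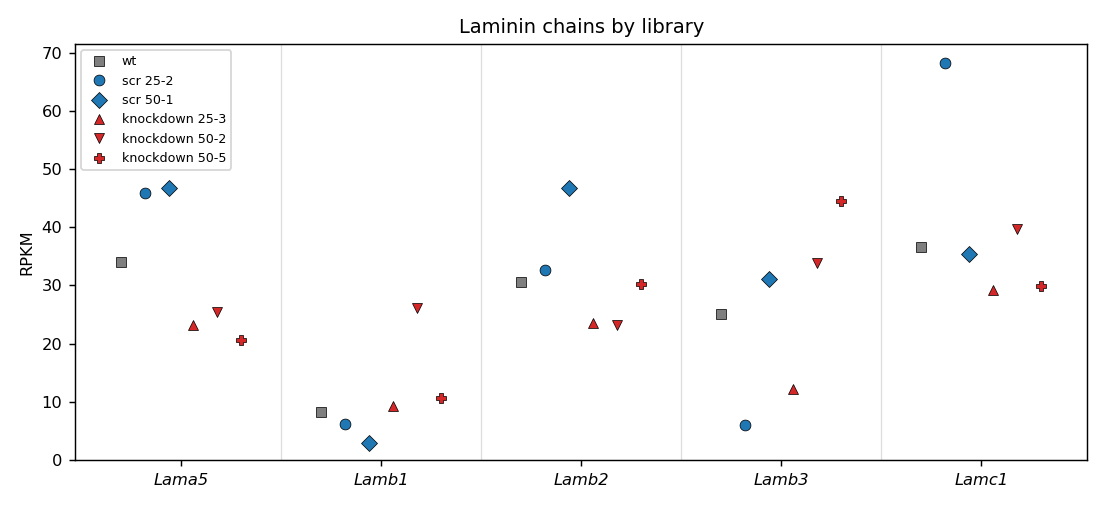
RPKM of 5 tested laminin chains, 1 point per library, with wt in grey, scr in blue and knockdown in red. Lama5 is 45.9 and 46.8 in scr and between 20.6 and 25.4 in knockdown, whereas in Lamb3 and Lamc1 the scr libraries lie far apart.

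Among integrins, the receptor chains that bind RGD ligands moved in both directions. Itgav, the alpha chain that pairs with Itgb1, Itgb3, Itgb5, Itgb6 and Itgb8, had an RPKM of 45.1 in wt, 38.9 and 36.9 in scr, and 83.1, 93.7 and 92.4 in knockdown. The 2 groups were each narrow and wide apart, at means of 37.9 ± 1.41 (SD, n = 2) and 89.8 ± 5.77 (SD, n = 3). Itgav rose by 1.23 on the log2 scale (SE 0.13, FDR 0.0089), a 2.37-fold ratio of the means, and made up 12.8% and 14.2% of the summed integrin alpha RPKM in scr and 20.8%, 21.9% and 24.6% in knockdown. Without knockdown 50-2 the FDR was 0.0551 at a log2 fold change between 1.20 and 1.29 over the 5 sets of 4 libraries.

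Itgb3, the beta chain of the vitronectin receptor with Itgav and of the platelet fibrinogen receptor with Itga2b, had an RPKM of 0.239 in wt, 0.0176 and 0.231 in scr, and 3.31, 3.83 and 5.00 in knockdown. This was 3 and 38 counts in scr against 605, 715 and 957 counts in knockdown. The gene was near 0 without the shRNA. Itgb3 rose by 5.02 on the log2 scale (SE 0.91, FDR 0.0284), and the call was lost without knockdown 25-3, 50-2 or 50-5 (FDR 0.0917, 0.108 and 0.0916). The fitted log2 change was 7.78 without scr 50-1 and 4.13 without scr 25-2, both called. Its platelet partner Itga2b had 0.405 and 0.408 in scr and 0.332, 0.387 and 0.185 in knockdown, against 83.1 to 93.7 for Itgav.

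Itgb5, another beta chain that binds vitronectin with Itgav, had an RPKM of 33.3 in wt, 23.5 and 43.8 in scr, and 14.8, 14.1 and 15.8 in knockdown. The knockdown libraries were close together and below both scr libraries, which were wide apart. Itgb5 fell by 1.18 on the log2 scale (SE 0.26, FDR 0.0460), and the FDR was 0.144, 0.168 and 0.117 without knockdown 25-3, 50-2 and 50-5. Its log2 fold change was -0.67 (FDR 0.0463) without scr 50-1 and -1.55 (FDR 0.0042) without scr 25-2. Itgb6, the epithelial beta chain that with Itgav activates latent TGF-beta, had 1.70 in wt, 2.09 and 2.62 in scr, and 3.70, 8.59 and 13.2 in knockdown. All knockdown libraries lay above scr, but they ranged widely, and the log2 fold change of 1.84 (SE 0.54) was not called (FDR 0.0826). It was called without knockdown 25-3 (2.19, FDR 0.0455) and in none of the other 4 fits without 1 library, where it was lowest without knockdown 50-5 (1.37, FDR 0.166).

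Set side by side, Itgb3, Itgb5 and Itgb6 made up a different mixture per length. Their shares leave out Itgb1, which also pairs with Itgav. Itgb1 took 82.9% to 90.9% of the summed integrin beta RPKM and was not called (FDR 0.695). Of the summed RPKM of Itgb3, Itgb5 and Itgb6, the Itgb5 chain took 91.8% and 93.9% in scr, 94.5% in wt, and 67.9%, 53.1% and 46.5% in knockdown. The Itgb3 chain took 0.0689% and 0.495% in scr and 15.2%, 14.5% and 14.7% in knockdown, and the Itgb6 chain took 8.18% and 5.62% in scr and 16.9%, 32.5% and 38.8% in knockdown. The sum itself overlapped between the groups, at 25.6 and 46.6 in scr against 21.9 in knockdown 25-3 and 26.5 in knockdown 50-2, with knockdown 50-5 between the scr values. The knockdown libraries were alike in the Itgb3 share and unlike in the other two.

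**Figure D4:**
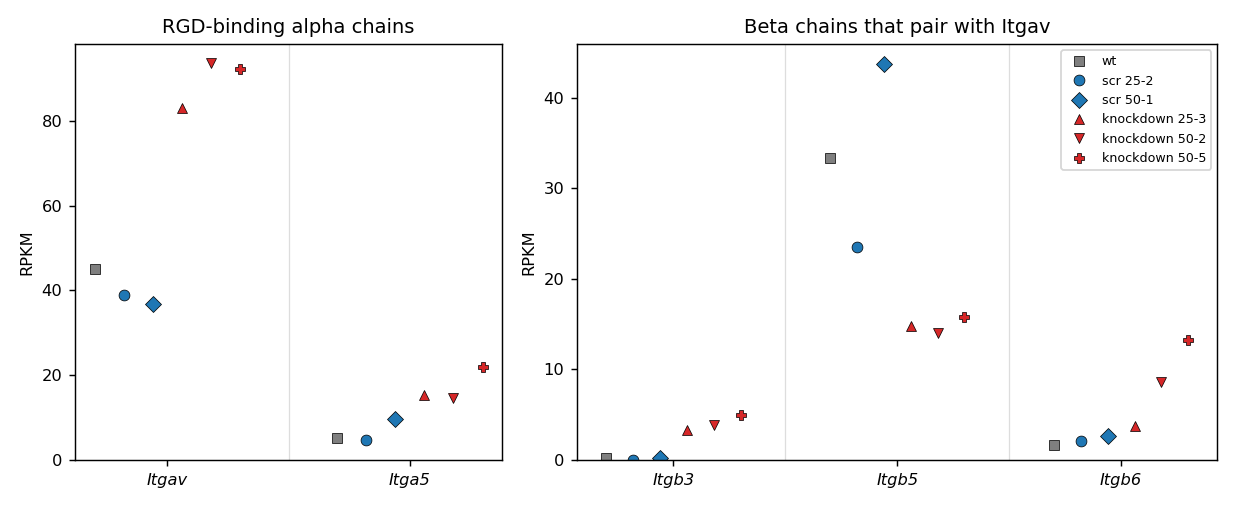
RPKM of the RGD-binding alpha chains Itgav and Itga5 (left) and of the beta chains Itgb3, Itgb5 and Itgb6 (right), 1 point per library, with wt in grey, scr in blue and knockdown in red. Itgav lies between 83.1 and 93.7 in knockdown and between 36.9 and 45.1 elsewhere, and Itgb5 is lower and Itgb3 higher in all 3 knockdown libraries than in wt and scr.

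Itga5, which with Itgb1 forms the fibronectin receptor, had an RPKM of 5.26 in wt, 4.76 and 9.55 in scr, and 15.3, 14.7 and 21.9 in knockdown. The groups did not overlap, but the log2 fold change of 1.27 (SE 0.35) did not pass the threshold (FDR 0.0740). It was 1.85 (FDR 0.0249) without scr 50-1 and 0.86 (FDR 0.0921) without scr 25-2, and its FDR lay between 0.161 and 0.173 without a knockdown library.

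The collagen-binding alpha chains were Itga1, Itga2, Itga10 and Itga11, all partners of Itgb1. Itga10, known from cartilage, had an RPKM of 0.715 in wt, 1.63 and 0.989 in scr, and 0.490, 0.332 and 0.450 in knockdown. It fell by 1.64 on the log2 scale (SE 0.35, FDR 0.0407), with an FDR of 0.115, 0.153 and 0.112 without knockdown 25-3, 50-2 and 50-5. Itga10 passed the filter through scr 25-2 alone, so that a difference follows in part from the filter. Without that library it could not be tested. Itga2, the collagen I receptor of epithelial cells and the main collagen-binding chain here, had 26.6 in wt, 18.6 and 25.4 in scr, and 12.3, 24.4 and 14.0 in knockdown (log2 fold change -0.39, SE 0.33, FDR 0.450). Its groups overlapped. Itga1 stayed between 0.299 and 0.937 in all libraries, and Itga11 reached under 10 counts in each.

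Itgb1 and Itga3, which pair in a laminin receptor, had the highest mean RPKM of all 80 genes. Itgb1, the partner of most alpha chains, had an RPKM of 323 in wt, 303 and 247 in scr, and 234, 277 and 265 in knockdown, and took 82.9% to 90.9% of the summed integrin beta RPKM. Its log2 fold change was -0.10 (SE 0.16, FDR 0.695). Itga3, which with Itgb1 is a receptor of the laminins that carry Lama5, had 135 in wt, 190 and 146 in scr, and 246, 217 and 205 in knockdown (log2 fold change 0.39, SE 0.17, FDR 0.187). The knockdown libraries lay above both scr libraries in Itga3, without passing the test.

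Itga6, a laminin receptor chain that pairs with Itgb1 or Itgb4, had 51.9 in wt, 47.4 and 38.7 in scr, and 41.2, 76.99 and 39.9 in knockdown (log2 fold change 0.27, SE 0.32, FDR 0.605). Itgb4, the hemidesmosome chain that pairs with Itga6, had 11.95 in wt, 4.91 and 3.94 in scr, and 4.25, 13.3 and 4.66 in knockdown (log2 fold change 0.73, SE 0.54, FDR 0.403). In both genes knockdown 50-2 stood above the other knockdown libraries, and without it the log2 fold change of Itgb4 was 0.0080. Chains of leukocyte integrins were near 0, and Itgb2, their common beta chain, had 1 count in wt, 0 in both scr libraries and 8, 13 and 14 in knockdown. Without the RPKM filter Itgb2 was called higher (FDR 0.0346).

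The calls depended on which libraries were used. Leaving out 1 library, 5 of the tested genes of these families were called without knockdown 25-3, 2 without 50-2 and 4 without 50-5, against 2.24%, 1.14% and 3.01% of all genes. Without scr 25-2, 14 were called, and without scr 50-1, 11, against 19.9% and 11.3% of all genes. In these fits the lone scr library was assumed to vary like the knockdown libraries. Col6a1 and Col7a1 were called in each of the 5, Itgav in 4 of them and Col9a1 in 3 of the 4 in which it could be tested. Col6a1 and Col7a1, the 2 genes called without 50-2, passed the filter through the knockdown libraries alone. Col9a1 passed it through the scr libraries alone. For these genes a difference follows in part from the filter. The 4 libraries other than wt and knockdown 50-5 are those whose RPKM values appear in the gene list of the study.

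Genes that make, bind or cut the same matrix were taken as 5 lists, whose counts stand beside the 10.6% of all tested genes that were called, 5.4% higher and 5.23% lower. Of the called genes named below, Nid2 and Lims2 passed the filter through the knockdown libraries alone and Mmp3 through the scr libraries alone, and for them a difference follows in part from the filter. Of genes for collagen synthesis and crosslinking, 18 of 33 were tested, 1 rose and 1 fell, at a median log2 fold change of -0.37. P4ha2, a prolyl hydroxylase that stabilizes the triple helix, had an RPKM of 9.69 in wt, 9.19 and 10.4 in scr, and 16.5, 22.1 and 20.4 in knockdown and rose by 0.99 (log2, SE 0.18, FDR 0.0279), but its FDR was 0.0600, 0.111 and 0.0916 without knockdown 25-3, 50-2 and 50-5. Loxl4, a lysyl oxidase that crosslinks collagen, had 32.5 in wt, 97.2 and 125.5 in scr, and 26.8, 36.3 and 47.4 in knockdown and fell by 1.61 (log2, SE 0.26, FDR 0.0228), with an FDR of 0.0631 and 0.104 without knockdown 25-3 and 50-2. The wt library was on the side of knockdown in Loxl4, and with wt added to the controls its FDR was 0.125.

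Of basement membrane and matrix partners, 10 of 23 were tested, 1 rose and 1 fell (median 0.28). Thbs1, thrombospondin-1, a matrix protein that binds integrins and CD47, had an RPKM of 328 in wt, 234 and 292 in scr, and 90.3, 78.4 and 56.2 in knockdown. It fell by 1.82 (log2, SE 0.23, FDR 0.0121) and had an FDR of 0.0743 without knockdown 50-2. Nid2, a nidogen that links laminin to collagen IV, had 8 and 0 counts in scr and 110, 171 and 147 in knockdown and rose by 4.95 (log2, SE 1.00, FDR 0.0367), with an FDR of 0.1103 and 0.103 without knockdown 25-3 and 50-5. Its log2 fold change was 3.99 without scr 50-1 and 10.1 without scr 25-2, where the remaining scr library had 0 counts and the fitted value is no bound. It passed the filter through knockdown 50-2 (RPKM 1.08) and could not be tested without that library. Of other receptors of collagen and laminin, 10 of 14 were tested and Cd44 alone was called (median 0.10). Cd44, the hyaluronan receptor, had an RPKM of 79.9 in wt, 81.5 and 81.4 in scr, and 163, 227 and 173 in knockdown and rose by 1.19 (log2, SE 0.18, FDR 0.0190), with an FDR of 0.0592, 0.0678 and 0.0616 without knockdown 25-3, 50-2 and 50-5.

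Of integrin activation and adhesion genes, 25 of 30 were tested, 2 rose and 1 fell (median 0.28), against 10.6% called over all genes tested. Zyx, the focal adhesion protein zyxin, had 14.4 and 10.9 in scr and 25.3, 22.9 and 29.0 in knockdown. Lims2, an adapter of the integrin-linked kinase, had 0.161 and 0.0924 in scr and 0.983, 2.35 and 1.40 in knockdown. Cd47, which associates with the Itgav and Itgb3 pair and binds thrombospondin, had 59.5 and 69.9 in scr and 22.4, 23.7 and 34.6 in knockdown. Zyx rose by 1.01 (log2, SE 0.19, FDR 0.0324), Lims2 rose by 3.60 (log2, SE 0.58, FDR 0.0218) and Cd47 fell by 1.28 (log2, SE 0.23, FDR 0.0273). Leaving out knockdown 25-3, 50-2 or scr 50-1 ended each of these calls, and leaving out knockdown 50-5 ended those of Zyx and Lims2, with an FDR of up to 0.107 for Zyx, 0.116 for Cd47 and 0.0780 for Lims2.

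Of matrix proteases and their inhibitors, 13 of 25 were tested, 3 rose and 3 fell (median 0.09), against 5.4% called higher and 5.23% lower over all genes tested. Mmp13, a collagenase that cuts fibrillar collagen, had an RPKM of 27.0 in wt, 22.2 and 13.0 in scr, and 275, 373 and 273 in knockdown. It rose by 4.11 (log2, SE 0.33, FDR 0.0060), and the call held without each library in turn. Mmp10, stromelysin-2, had 2.57 and 0.688 in scr and 17.3, 14.6 and 47.4 in knockdown and rose by 4.01 (log2, SE 0.85, FDR 0.0415), with an FDR between 0.0706 and 0.0993 without knockdown 25-3, 50-2 or 50-5 or scr 50-1. The log2 fold change of Mmp10 ranged from 3.27 without knockdown 50-5 to 5.26 without scr 25-2. Mmp3, stromelysin-1, went the other way, with 13.4 and 6.40 in scr and 0.299, 0.464 and 0.168 in knockdown. Mmp3 fell by 5.00 (log2, SE 0.53, FDR 0.0089) and had an FDR of 0.0539 without knockdown 25-3 and a log2 fold change of -4.36 without scr 25-2. Plat, a plasminogen activator, and Timp3, an inhibitor of matrix proteases, were also called lower. The FDR of Timp3 was 0.0969, 0.104 and 0.0911 without knockdown 25-3, 50-2 and 50-5, and that of Plat lay between 0.0609 and 0.152 in the 5 fits without 1 library, so that its call was lost in each.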

How the data were processed

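RNA-seq counts of 6 Hepa1-6 libraries were analysed. The authors aligned reads to mm10 with TopHat2, counted them per gene with HTSeq (RefSeq annotation) and deposited these counts without normalization. HTSeq is 0.6.1p1 in the submitters' processing notes, the strand setting is not given in the sources used here, and overlapping genes are uncertain. The deposited RPKM values were made by the authors from TMM-scaled library sizes and summed exon length. Library columns without a sample numbered 0. The ribosomal Rn45s took 10.1% to 13.1% of the counts.

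Genes whose RPKM exceeded 1 in any of the 5 knockdown and scr libraries were tested by edgeR 4.0.16 in R 4.3.3 (quasi-likelihood test on the counts, TMM on the tested genes, Benjamini-Hochberg adjustment over all of them, FDR under 0.05 and fold change of at least 1.5). The thresholds and the filter are those of the study, and the 3 knockdown libraries were grouped by their labels. Standard errors are the absolute log2 fold change over the square root of F. The estimated common biological coefficient of variation was 0.272. wt, 1 library, is described by its values. Alternatives were DESeq2 1.42.0, limma 3.58.1 on log2(RPKM + 1) and log2(RPKM + 0.1), other size factors and filters, a block for the 25 or 50 of the titles, wt as a control, and each library left out. Intervals are exact and cover counting error only.

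Members, lists (5 of other matrix genes, 5 of cell type markers) and the rule for named genes were chosen with earlier results of these data known. Named were the called members, the 3 members of each family with the highest mean RPKM, chain partners of called members, the called genes of each list with up to 3 largest changes, and Midn. Of the genes this rule names or tests, 2 are not reported here, and the counts include them. The other tested members, and Itgb2, Lama1, Lama3 and the leukocyte chains, were named after their values were seen. Promoters are from RefSeq (GRCm38.p6). Python 3.11.15, pandas 2.3.3 and matplotlib 3.10.9 were used.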

Additional observations from a re-analysis of the deposited data

Results flagged for a closer look

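Itgb4, the beta chain that pairs with Itga6, had an RPKM of 11.95 in wt, the library that enters no test, against 4.91 and 3.94 in scr. It was singled out because this library without a vector lay above 2 times the higher scr value. Knockdown 50-2 reached 13.3. Wt is 1 library and the difference was not tested.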

How the results depend on the processing

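Counts of called genes depended on the libraries and the test. Leaving out 1 library, between 89 and 1146 of all genes were called higher (625 with all 5 libraries) and between 42 and 1127 lower (605). Of the collagens, laminins and integrins, 2 to 7 were then called higher and 0 to 7 lower, against 5 and 5, and the count without knockdown 50-2 was lowest. DESeq2 called 1167 genes higher and 1155 lower, and 8 higher and 8 lower of these families. Lower calls of the families were 2 by limma on log2(RPKM + 1), 3 on log2(RPKM + 0.1) and 3 with the replicate block, and those of all genes were 534, 428 and 388. Midn had a log2 fold change of -1.38 and an FDR of 0.0525 without knockdown 50-2, and between -1.49 and -1.25 over the 5 fits. Detected were 28 genes at an RPKM over 1, 48 at over 0.1 and 52 at 10 counts or more in at least 1 library. Signs turned for genes that were not called. Without 1 library the log2 fold changes ranged from -0.035 to 0.556 for Col18a1, -0.213 to 3.041 for Col4a1, -0.226 to 2.422 for Col4a2, -0.090 to 0.452 for Col8a1, -0.090 to 0.445 for Itga6, -0.244 to 0.067 for Itgb1 and -0.042 to 2.299 for Lamb3. All 10 called genes kept their direction in the 9 other alternatives, and the calls were lost in 3 of 10 under limma on log2(RPKM + 1), 2 on log2(RPKM + 0.1) and 3 under the block (Col27a1 with an FDR of 0.0613, Itga10 with 0.0597 and Itgb5 with 0.0566). Of the other matrix genes named, the block also ended the calls of Zyx (0.0557), Lims2 (0.0501), Nid2 (0.0662), Mmp10 (0.0806) and Plat (0.0648), and it added Col12a1 (0.0276). Col12a1, Itga5 and Itgb6 were called with wt as a control, and these with Col14a1, Lamb1 and Lamb2 by DESeq2. The cause was not tested. The block rests on the 25 or 50 of the titles, numbers that both groups hold and whose meaning is not stated.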
